A study of Mus musculus with 36 samples.

Results

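The proteasome subunits and the ubiquitin-conjugating enzymes were followed in quadriceps muscle of BSG and GSG mice, which lack beta- and gamma-sarcoglycan respectively, from 1 to 20 weeks of age. Members were the oligonucleotides with a single gene symbol that begins with Psma, Psmb, Psmc, Psmd, Psme or Ube2, leaving out the inducible subunits Psmb8, Psmb9 and Psmb10. There were 43 of them, 1 for each of 43 genes, among 6540 genes with a symbol of their own and 8129 oligonucleotides in all, and each was printed in duplicate. They comprised the 14 genes of the 20S core (Psma1 to Psma7 and Psmb1 to Psmb7), 11 genes of the 19S cap (Psmc1 to Psmc5, Psmd2, Psmd4, Psmd7, Psmd10, Psmd13 and Psmd14), 3 activator genes (Psme1, Psme2b and Psme3), 14 Ube2 genes, and Psmc3ip, a recombination factor that shares only the letters of its symbol with the cap and was kept out of the cap's values. No treatment is named for either group, and what both share is the loss of a member of the sarcoglycan complex. Mice were taken at 1, 2.5 and 4 weeks, then every 2 weeks up to 14 weeks, and at 20 weeks, with 2 mice for each age and strain, 36 mice in all. The study used littermates at most ages, so the mice of an age and strain can share a litter and an hour of sampling. Their RNA was hybridised on 36 arrays in 4 closed loops, 2 per strain, in which each array set an age (Cy5) against the one before it (Cy3) and the last array set 1 week (Cy5) against 20 weeks (Cy3). Wild-type arrays are not analysed here, so that a change with age cannot be told apart from a change with disease.

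The 20S core is a barrel of alpha rings (Psma genes) around beta rings (Psmb genes), and Psmb5, Psmb6 and Psmb7 encode its constitutive catalytic subunits. The 19S cap, with its ring of Psmc ATPases, recognises proteins tagged with ubiquitin, removes the tag and feeds the protein into the core, whereas the Psme activators open the core without ATP. Tagging is done by an activating enzyme, a Ube2 conjugating enzyme and a ligase in turn. In skeletal muscle this pathway degrades myofibrillar proteins and is known for its part in muscle wasting, and its subunit genes are known to be induced together by transcription factors of the Nrf family through antioxidant response elements.

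The values are log2 ratios of a mouse to the 1-week mouse of its own loop, and the estimate for a strain is the mean of its loops. The SE is that of the limma fit over the 36 arrays. The deposited ratios do not name their numerator. Cy5 over Cy3 in the labels, which is later over earlier age, was taken, and with it Dlk1, an imprinted gene known to decline in muscle after birth, was lower at 20 weeks than at 1 week by a log2 ratio of -3.05 ± 0.24 (SE) in BSG and -3.54 ± 0.24 in GSG (adjusted p = 1.68e-08 and 6.25e-10, limma). The duplicate spots of an array correlated with a median r of 0.543 over the 36 arrays. By loop, the median was 0.316 and 0.364 in the first loops of BSG and GSG, against 0.583 and 0.645 in their second loops. Of the 9 arrays below 0.3, each first loop held 4 and the second GSG loop held 1. The duplicates of the first loops thus agreed less well than those of the second.

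Promoter sequence is shown for Psma7 and the catalytic Psmb5, core genes that were lower in each 4-week mouse than at 1 week, and for Ube2v1, the member that passed a test. That they hold a motif entered the choice. RefSeq promoters (GRCm38.p6) were found for 33 of the 43 genes, and the 250 bases before the start were searched on both strands. Capitals mark CCAAT, the box bound by NF-Y, or TGACNNNGC, the core of the antioxidant response element, or the reverse complement of either.
Psma7, chr2:180042465-180042664, minus strand: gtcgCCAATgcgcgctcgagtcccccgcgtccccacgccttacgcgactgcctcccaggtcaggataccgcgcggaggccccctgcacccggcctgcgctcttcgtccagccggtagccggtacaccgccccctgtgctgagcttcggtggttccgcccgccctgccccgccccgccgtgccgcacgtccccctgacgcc
Psmb5, chr14:54617996-54618105, minus strand: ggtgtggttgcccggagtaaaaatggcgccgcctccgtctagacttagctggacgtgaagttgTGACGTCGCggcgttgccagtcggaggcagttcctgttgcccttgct
Ube2v1, chr2:167632006-167632240, minus strand: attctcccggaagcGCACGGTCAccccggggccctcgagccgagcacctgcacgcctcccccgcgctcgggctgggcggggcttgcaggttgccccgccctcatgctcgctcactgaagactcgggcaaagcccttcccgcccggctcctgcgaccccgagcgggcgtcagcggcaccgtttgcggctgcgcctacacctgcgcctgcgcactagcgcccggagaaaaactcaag

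TGACNNNGC was present in 4 of the 33 genes with a promoter (Psmb5, Psmb6, Ube2j1 and Ube2v1), against 11.52% of 27025 genes in the same table. CCAAT was present in 15 of the 33, among them 6 of 11 core genes, 5 of 9 cap genes, 2 of 9 Ube2 genes, Psme3 and Psmc3ip, against 37.5% of all genes. No member held both motifs. These matches describe letters in the windows and were not set against binding of any factor.

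The core genes were lower at 4 weeks than at 1 week in most mice, and the core median of each strain was at its lowest at that age. The median of the 14 genes was -0.45 in BSG, with 14 of 14 below 0, and -0.40 in GSG, with 11 of 14 below 0. The single BSG mice had a median of -0.51 and -0.52, and the GSG mice -0.58 and -0.24. In the second loops it was as low or lower later, at -0.54 in BSG at 6 weeks and -0.26 in GSG at 8 weeks. The median of all 8129 oligonucleotides in the 4-week mice lay between -0.04 and 0.00. By the loop estimates all 4 of the 4-week mice lay on the same side for the core as a whole. In 9 of the 14 genes (Psma2, Psma4, Psma5, Psma6, Psma7, Psmb1, Psmb3, Psmb4 and Psmb5) each of these mice was below the 1-week mouse of its loop. Over all members this held for 13 of 43, against 11.6% of all oligonucleotides, and 1 member (Psmc4) was higher in all of these mice, against 8.09%. The other 4 of the 13 were the ATPase genes Psmc2 and Psmc5 and the conjugating enzymes Ube2b and Ube2v1. Over the arrays the duplicate spots of Psmc4 correlated at only 0.09. The loop estimates spread the sum of a loop's 9 log ratios evenly over its arrays. The single arrays did not all show the low level. For 2.5 over 1 and 4 over 2.5 weeks the core medians were 0.45 and -0.98 in BSG loop 1. They were -0.23 and 0.17 in BSG loop 2, -0.07 and -0.08 in GSG loop 1, and 0.08 and 0.01 in GSG loop 2. On the arrays of 4 over 2.5 weeks 3 of 43 members were below 0 in all 4 loops, against 11.69% of all oligonucleotides. The later age was in Cy5 on these arrays. A fitted dye term (Cy5 over Cy3) had a median of 0.19 over the core genes. A single array, unlike a closed loop, does not cancel such a term, and its part in these values was not tested.

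Psma5, an alpha subunit, gave -1.27 and -0.80 in the BSG mice of 4 weeks and -1.01 and -0.44 in the GSG mice. Psma7, also an alpha subunit, gave -1.12 and -0.60 in BSG and -0.22 and -0.16 in GSG. Psmb5, which encodes the chymotrypsin-like subunit, gave -0.98 and -0.22 in BSG and -0.53 and -0.18 in GSG. The BSG mouse of loop 1 was the lowest for each of these genes. Psma1, Psma3, Psmb2, Psmb6 and Psmb7 were the exceptions with mice on both sides of 0. Psmb7, the trypsin-like subunit, gave 0.43 and -0.53 in BSG and 0.26 and 0.13 in GSG.

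No member passed the limma test at 4 weeks, where 0.0123% of all oligonucleotides were called in BSG and 0% in GSG. Psma5 (-1.03 ± 0.47, adjusted p = 1.00) and Psma7 (-0.86 ± 0.37, adjusted p = 1.00) had an unadjusted p under 0.05 in BSG by limma, and 0 members did in GSG, against 3.73% and 5.49% of all oligonucleotides. The low level at 4 weeks is therefore a description over the mice and was not called for any gene. Marker lists of other cells and stages were off 0 in the same mice. The newborn muscle list had a median of -0.44 and -0.44 in the BSG mice and -0.42 and -0.22 in the GSG mice, and the fibroblast and matrix list -0.14 and -0.52 in BSG and -0.69 and -0.20 in GSG. The macrophage list was above 0, at 0.24 and 0.39 in BSG and at 0.26 in both GSG mice, as was the adult fast fibre list, at 0.32 and 0.09 in BSG and 0.04 and 0.53 in GSG. The part of these cells and stages in the core values was not tested. With the arrays scaled to the same spread, the BSG median at 4 weeks was -0.26. In GSG it was -2.10 once the arrays whose duplicate spots correlated below 0.3 were left out, which removes both GSG arrays of 4 over 2.5 weeks and opens the loops, and -0.40 when a dye term was added to that fit.

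**Figure D1:**
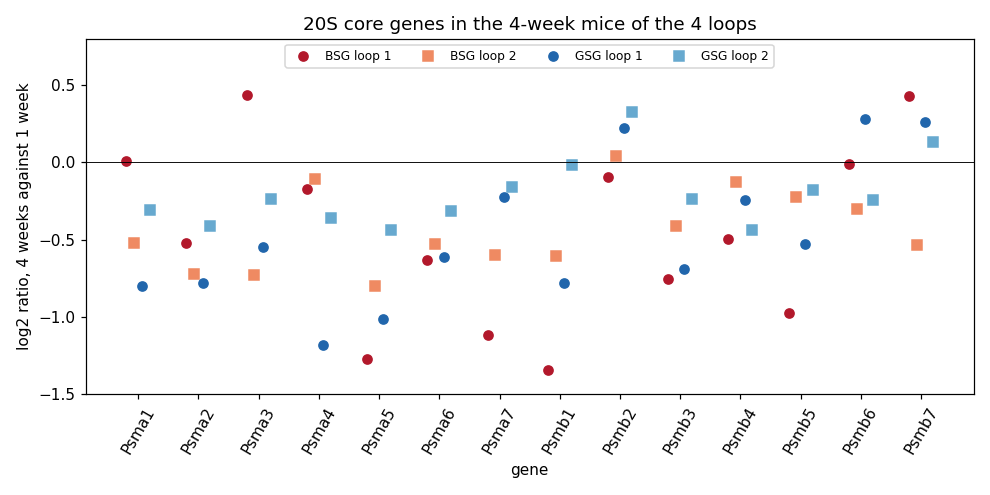
Log2 ratio of 4 weeks to 1 week (y axis) for the 14 genes of the 20S core (x axis), with 1 point for each 4-week mouse, coloured by strain and loop. Most points lie below 0, with medians over the genes of -0.51 and -0.52 in the BSG mice and -0.58 and -0.24 in the GSG mice, whereas Psma1, Psma3, Psmb2, Psmb6 and Psmb7 have points on both sides.

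At 20 weeks most core genes were above their 4-week level. The median change from 4 to 20 weeks was 0.36 and 0.26 in the BSG loops and 0.32 and 0.28 in the GSG loops. It was above 0 in all 4 loops for 9 of 14 core genes, and for 14 of 43 members against 7.7% of all oligonucleotides, while 0 members were lower in all 4 loops, against 7.91%. These counts rest on the same 4-week mice as those against 1 week and are no separate evidence of a low level at 4 weeks.

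The BSG loops already lay apart at 2.5 weeks, with core medians of 0.40 and -0.35. They were close at 4 weeks and apart again from 6 to 14 weeks (0.20 and -0.40 at 14 weeks). In loop 1 the core median was 0.91 at 6 weeks, 1.47 at 8 weeks and 1.16 at 10 weeks. In loop 2 it was -0.54, -0.43 and -0.15. The largest step was on the array of 6 over 4 weeks in BSG loop 1, where the core median was 1.71, 1.64 over the first and 1.72 over the second spots, and where the duplicate spots of all oligonucleotides correlated at 0.742. On later arrays of that loop the first and second spots lay on opposite sides of 0, with core medians of -0.59 and 0.20 for 10 over 8 weeks, -1.36 and 0.46 for 12 over 10 weeks and -0.75 and 0.20 for 14 over 12 weeks. The core median of BSG at 8 weeks was 0.46, but 0.92 with the first spots alone and -0.11 with the second. The arrays of 6 over 4 weeks gave a core median of 0.06 in the second BSG loop, and of 0.82 and 0.11 in the GSG loops. The GSG medians at 8 weeks were 0.14 and -0.26. Both first loops thus lay above both second loops at 8 weeks.

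Psmb1, a beta subunit, shows this divergence: the BSG mouse of loop 1 went from -1.35 at 4 weeks to 1.67 at 8 weeks, whereas the mouse of loop 2 had -0.61 and -0.72. Psma3 gave 2.75 and -0.82 at 8 weeks in the BSG mice and 0.00 and -0.38 in the GSG mice. At that age the estimates for BSG carry a spread between mice larger than their size, and 0 core genes had an unadjusted p under 0.05. Over all members, 3 had one in BSG (Ube2e1, Ube2e3 and Ube2v2) and 1 in GSG (Psme1) by limma, against 5.68% and 4.13% of all oligonucleotides.

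Other genes diverged in the same mice. At 8 weeks the median of 27 oligonucleotides for the respiratory chain (Nduf, Cox and Atp5 genes, chosen after the values were seen) was 1.00 and -0.32 in the BSG loops, and that of 44 ribosomal proteins 0.30 and -0.66. The macrophage markers had a median of 0.72 and 0.15, and the adult fast fibre markers 0.44 and 0.09. In BSG loop 1 the arrays of 8 over 6, 10 over 8, 12 over 10 and 14 over 12 weeks had duplicate correlations below 0.3. The part of the cell content and of the array quality in the divergence was not tested.

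**Figure D2:**
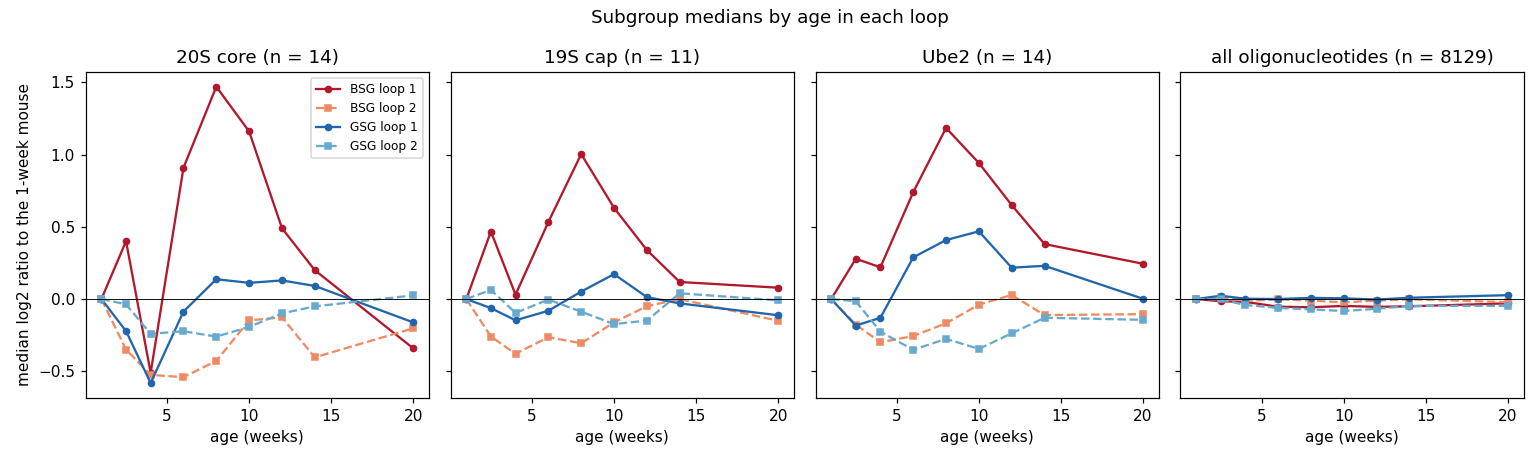
Median log2 ratio to the 1-week mouse (y axis) by age in weeks (x axis) for the 20S core, the 19S cap, the Ube2 genes and all oligonucleotides, with 1 line per loop of 9 mice. All 4 loops lie below 0 at 4 weeks in the core, and BSG loop 1 then reaches 1.47 at 8 weeks while BSG loop 2 stays at -0.43.

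At 20 weeks no core gene was called in either strain. The median was -0.35 in BSG (-0.34 and -0.20 by mouse) and -0.05 in GSG (-0.16 and 0.03 by mouse). By the estimates, 7 of 7 beta genes lay below 0 in BSG, against 53.2% of all oligonucleotides. Their median was -0.35 (-0.54 and -0.11 by mouse). In GSG 6 of 7 lay above 0, against 48.1% of all, with a median of 0.04. By mouse the GSG median was -0.15 and 0.24, on both sides of 0. Psmb6, the caspase-like subunit, gave -1.03 and -0.20 in the BSG mice and 0.01 and 0.24 in the GSG mice. Its estimate was -0.61 ± 0.29 in BSG (adjusted p = 0.409, limma), and the difference between the strains, BSG minus GSG, was -0.74 (adjusted p = 0.779, limma). Psmb3, a further beta subunit, had -0.95 and -0.11 in BSG and -0.17 and 0.17 in GSG. In both, the estimate for BSG was set mostly by the mouse of loop 1. The alpha genes were less uniform in BSG, where Psma1, Psma3 and Psma4 were above 0 in the mouse of loop 1 (1.22, 0.90 and 0.92) and below 0 in that of loop 2 (-0.20, -0.58 and -0.25), while all 7 lay below 0 in GSG, between -0.52 and -0.05. Psma5 was below 0 in each 20-week mouse, at -0.34 and -0.49 in BSG and -0.71 and -0.34 in GSG, with an adjusted p of 0.80 and 0.59 by limma.

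The 19S cap was closer to its 1-week level than the core at 4 weeks, with a median of -0.21 in BSG and -0.18 in GSG. It was farther than the core at other ages, with 0.13 against 0.03 in BSG at 2.5 weeks and -0.13 against 0.02 in GSG at 12 weeks. At 8 weeks the cap median was 1.00 and -0.31 in the BSG mice and 0.05 and -0.09 in the GSG mice. The median of the 11 genes at 20 weeks was -0.09 in BSG and -0.08 in GSG, with 4 and 3 genes above 0. Among the 4-week mice it was 0.03 and -0.38 in the BSG mice and -0.15 and -0.10 in the GSG mice. The ATPase genes Psmc2 and Psmc5 were below 0 in each mouse of 4 weeks (Psmc5 at -1.18 and -0.15 in BSG and -0.90 and -0.14 in GSG), as were most core genes. Psmc3 gave -0.52 and -0.42 in BSG and -0.69 and 0.05 in GSG. Psmc4, also of the ATPase ring, stayed between -0.48 and 0.26 in all mice.

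Psmd14, the deubiquitinase of the cap that cuts ubiquitin chains from the substrate, was the cap gene with the widest gap between BSG mice. The mice of loop 1 had 2.56 at 8 weeks and 1.27 at 20 weeks, against -0.67 and -0.35 for those of loop 2. The GSG mice had 0.44 and -0.20 at 8 weeks and -0.14 and -0.04 at 20 weeks. Its mean over the 8 later ages was 1.75 in BSG loop 1 and -0.49 in loop 2 (estimate 0.63, adjusted p = 0.751 by limma). Without BSG loop 2 it was called at 20 weeks (adjusted p = 0.0212) and over the later ages (adjusted p = 0.00785), so that 1 loop decides this value. Psmd2, a scaffold subunit, ran the other way in BSG loop 1, between -1.44 and -0.08 at the 8 later ages, and between -0.48 and 0.08 in loop 2.

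Psmd4, a ubiquitin receptor, was at -0.49 and 0.04 in the BSG mice and at 0.11 and 0.48 in the GSG mice of 20 weeks. Psmd13 gave -0.69 and -0.01 in BSG (-0.35 ± 0.16, adjusted p = 0.395, limma) and -0.28 and -0.24 in GSG. Psmd10 encodes gankyrin, an assembly chaperone rather than a subunit of the finished cap, and gave 0.08 and -0.27 in BSG and -0.15 and -0.03 in GSG. The values of Psmc1, also an ATPase, were 0.57 and -0.26 in BSG and -0.08 and -0.10 in GSG.

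Among the activators, Psme1, which encodes a subunit of the interferon-inducible PA28 ring, was above 0 at 8 weeks in GSG without being called (1.08 and 0.25, estimate 0.67 ± 0.31, adjusted p = 1.00, limma) and gave -0.11 and 0.27 at 20 weeks. The BSG mice of 8 weeks had 0.80 and -0.06. Psme3, of the nuclear activator ring, was below 0 in both GSG mice of 20 weeks (-0.16 and -0.58) and in both BSG mice (-0.14 and -0.03). The oligonucleotide of Psme2b gave -0.36 and -0.14 in BSG and 0.17 and 0.40 in GSG. Psme2b is a near-identical copy of Psme2, so its signal cannot be assigned to either gene with certainty.

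Ube2v1 was the member that passed a test. It encodes a variant without catalytic activity of its own, which pairs with Ube2n to build ubiquitin chains linked through lysine 63, and Ube2n is not among the members. At 20 weeks it was at -0.45 and -0.95 in the GSG mice, and the estimate was -0.70 ± 0.18 (adjusted p = 0.0234, limma), which is a level lower than at 1 week. In BSG it was at -0.49 in both mice (-0.49 ± 0.18, adjusted p = 0.217), and the difference between the strains, BSG minus GSG, was 0.20 (adjusted p = 0.912, limma). It was below 0 in 30 of the 32 later mice, against 3.3% of all oligonucleotides with as many or more, but the 8 later mice of a loop share 1 mouse of 1 week as reference, and both exceptions were mice of 2.5 weeks, at 0.16 (the first BSG loop) and 0.08 (the second GSG loop). Its spots agreed over the arrays with an r of 0.722.

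Of the 43 members, 1 was thus called at 20 weeks in GSG, where 3.74% of all oligonucleotides were called, and 0 in BSG, where 1.28% were. The share of members is no higher than that of the whole array. At an unadjusted p under 0.05 there were 3 members in GSG and 5 in BSG, against 14.7% and 11.6% of all oligonucleotides. The call of Ube2v1 was lost without any of the 4 loops (adjusted p between 0.0526 and 0.558), with 1 value per animal (0.110), with scaled arrays (0.173), with the first spots alone (0.129) and with a dye term once the arrays of low duplicate correlation were left out (0.0878). It was kept in the other 8 fits, with an adjusted p between 0.00133 and 0.0461.

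Ube2v2, the closest relative of Ube2v1 and likewise a partner of Ube2n, had the largest difference between the strains among the members. At 20 weeks it was at 2.25 and 0.03 in the BSG mice and at 0.27 and -2.16 in the GSG mice. The estimates were 1.14 ± 0.40 in BSG and -0.95 ± 0.40 in GSG (adjusted p = 0.200 and 0.228, limma), and their difference was 2.09 ± 0.56 (adjusted p = 0.384, limma). A mouse of each strain lay near 0 and the others far from it in opposite directions, so the strains do overlap. In loop 1 of BSG the gene stood above 2 from 8 to 20 weeks, and in loop 2 of GSG below -1 from 4 to 20 weeks. The difference was called without BSG loop 2 (adjusted p = 0.0259) and without GSG loop 1 (adjusted p = 0.0326), where the remaining mouse of a strain is the one far from 0.

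Ube2e1, a conjugating enzyme of the class that works with many ligases, had an estimate of 0.68 ± 0.28 in BSG at 20 weeks (adjusted p = 0.330, limma), from mice at 1.41 and -0.04. Over the 8 later ages it was 1.80 in loop 1 and -0.08 in loop 2 (0.86, adjusted p = 0.419). In GSG the mice of 20 weeks had 0.23 and -0.03. Again the value of the strain came from the mice of 1 loop.

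Ube2o, a large enzyme that acts as conjugating enzyme and ligase in one and is known from the maturing red cell, was at 0.18 and -1.67 in the GSG mice of 20 weeks (-0.75 ± 0.27, adjusted p = 0.133, limma). In BSG it was at 0.05 and 0.00. In the second GSG loop it was at 0.02 at 2.5 weeks, -0.62 at 4, -0.38 at 6, -0.60 at 8, -0.75 at 10, -1.03 at 12 and -1.25 at 14 weeks, while the first stayed between 0.04 and 0.22. Its duplicate spots correlated over the arrays at 0.0572 only, and it was named after its values were seen.

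Ube2b, an enzyme of DNA repair and of the N-degron pathway in muscle, was low at 4 weeks in each mouse (-0.49 and -0.84 in BSG, -1.17 and -0.25 in GSG), as were 9 of the 14 core genes. At 8 weeks it was at 2.76 and -0.48 in BSG and at -0.04 and -0.07 in GSG, and at 20 weeks at 0.87 and -0.31 in BSG and at 0.00 and -0.13 in GSG. The related Ube2a was on both sides of 0 at 4 weeks, with 1.58 and -0.41 in BSG and 0.36 and -0.12 in GSG, and was at 1.13 and -0.18 in the BSG mice of 20 weeks.

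None of the remaining enzymes was called at 20 weeks. Ube2h, which is known from red cell maturation, was at 0.04 and 0.53 in BSG and at 0.07 and -0.25 in GSG. Ube2l3, a partner of ligases that take ubiquitin over, was at -0.17 and 0.11 in BSG and at -0.13 and 0.20 in GSG. Ube2l6, the conjugating enzyme of the interferon-induced modifier Isg15, was at -0.39 and -0.01 in BSG and at 0.22 and 0.25 in GSG. It was above 0 at each later age in both GSG loops (mean over these ages 0.41 and 0.20, adjusted p = 0.712, limma). These ages share the 1-week mouse of their loop as reference, and the duplicate spots of Ube2l6 correlated over the arrays at only 0.20. Ube2e3 was among the members with an unadjusted p under 0.05 over any age in GSG by the moderated F test. The estimates of Ube2d2a, Ube2g2, Ube2j1 and Ube2k lay between -0.21 and 0.31 in both strains, with the BSG mouse of loop 1 at 0.53 for Ube2d2a and 0.79 for Ube2k. The median of the 14 Ube2 genes was 0.13 in BSG (0.24 and -0.10 by mouse) and -0.10 in GSG (0.00 and -0.14).

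**Figure D3:**
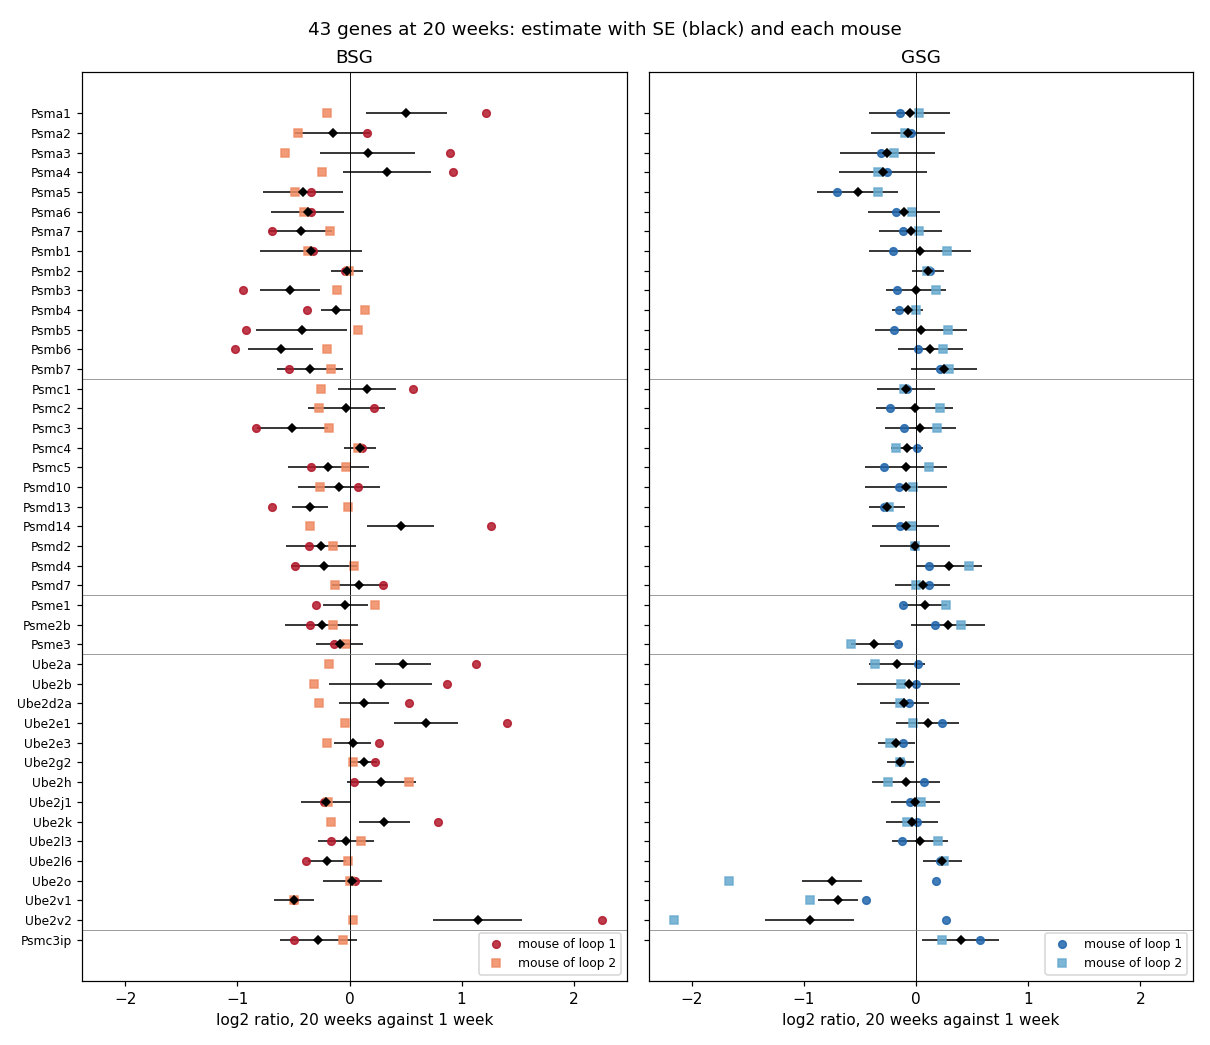
Log2 ratio of 20 weeks to 1 week (x axis) for the 43 genes (y axis, grouped as core, cap, activators, Ube2 and Psmc3ip), with the limma estimate and its SE in black and 1 coloured point per mouse. The GSG mice farthest from 0 are those of Ube2v2 (-2.16), Ube2o (-1.67) and Ube2v1 (-0.95), and in BSG the mouse of loop 1 reaches 2.25 (Ube2v2).

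Over the mean of the 8 later ages 0 members were called in either strain (0.0738% of all oligonucleotides in BSG and 0.652% in GSG), and 1 member in each had an unadjusted p under 0.05 by limma (Ube2e1 in BSG and Ube2v1 in GSG), against 6.68% and 8.35% of all. Over any age, by the moderated F test, 0 members were called (0.0984% and 0.59% of all), with 1 in BSG (Ube2v2) and 2 in GSG (Ube2v1 and Ube2e3) at an unadjusted p under 0.05, against 4% and 7.81% of all. The difference between the strains at 20 weeks was called for 0 members and for 0% of all oligonucleotides by limma, with 1 member (Ube2v2) at an unadjusted p under 0.05 against 7.21% of all. The temporal Hotelling test of the profiles, which compares quadratic curves between the strains, called 0 members and 0% of all. It gave 1 member (Ube2v2) an unadjusted p under 0.05, against 4.4% of all. The study's own pairwise test of this kind did list genes that differed between BSG and GSG. Nfe2l2 was among them, as a potential BSG marker. The study's table of markers holds no member, but it lists only genes of 1 strain that differed from each other strain. Why the results differ was not tested. At the ages between 1 and 20 weeks other than 4 weeks 0 members were called in either strain by limma. The share of all oligonucleotides called in BSG was 0.0123% at 2.5, 6, 8, 10 and 12 weeks and 0.0246% at 14 weeks. In GSG it was 0.0984% at 2.5 weeks, 0% at 6, 0.0123% at 8, 0.0492% at 10, 0.135% at 12 and 0.357% at 14 weeks.

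The errors of the members were larger than those of most oligonucleotides. Their SE at 20 weeks had a median of 0.291, with a range from 0.118 to 0.460, against a median of 0.204 over all. Within these errors a smaller change was not detectable with 2 mice per age.

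**Figure D4:**
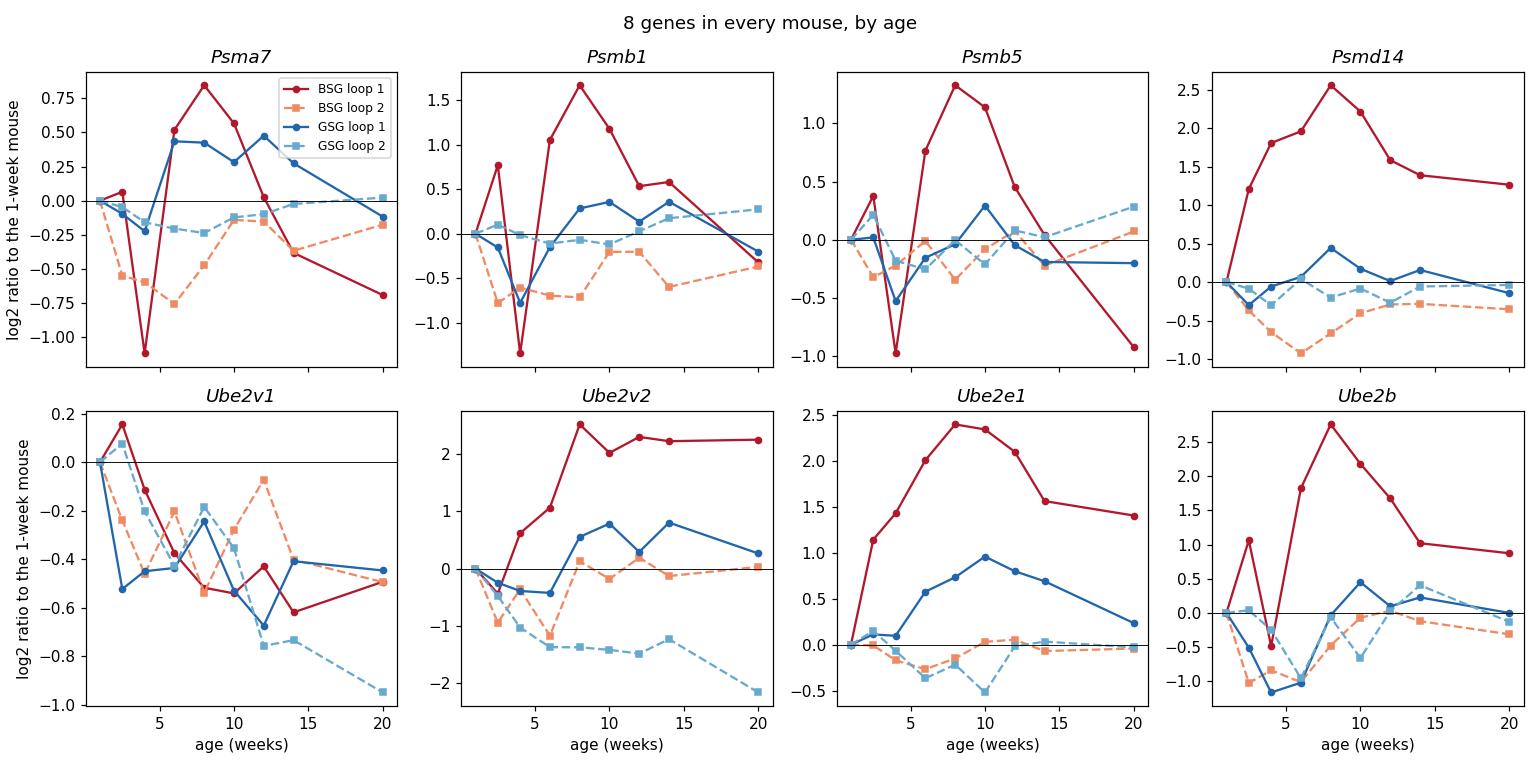
Log2 ratio to the 1-week mouse (y axis) by age in weeks (x axis) for 8 genes, with 1 line per loop and a y axis of its own in each panel. Psma7, Psmb1 and Psmb5 lie below 0 at 4 weeks in all loops, Ube2v1 lies below 0 from 4 weeks on in all loops, and BSG loop 1 is the highest line at all later ages for Psmd14 and Ube2e1, from 4 weeks on for Ube2v2, where GSG loop 2 is the lowest, and from 6 weeks on for Ube2b.

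Core genes went together from array to array, more closely in some loops than in others. Over the 36 arrays the log ratios of pairs of core genes had a median Pearson r of 0.61, and pairs of alpha genes 0.82, with a lowest value of 0.56. Pairs of cap genes had a median of 0.14, pairs of Ube2 genes 0.11, and pairs of all oligonucleotides -0.0035. Core genes with cap genes gave 0.34. Pairs of the 44 ribosomal protein oligonucleotides, another complex of fixed composition, gave 0.44. Within the loops the core gave 0.70 and 0.36 in BSG and 0.51 and 0.24 in GSG. The ribosomal proteins gave 0.32 and 0.71 in BSG and 0.52 and 0.66 in GSG, above the core in all loops but BSG loop 1. The cap gave 0.18 and 0.41 in BSG and 0.06 and 0.15 in GSG. The order over the 36 arrays thus did not hold in each loop. These are correlations across arrays that share mice and, within an array, labelling and depth, and they are given as a description.

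The closeness of the alpha genes was not set by a single loop. Over the 9 arrays of a loop their median r was 0.83 and 0.89 for the BSG loops and 0.76 and 0.47 for the GSG loops, and 0.85 over the arrays with a duplicate correlation of 0.3 or more. The beta genes were looser, with 0.53 over all arrays. The closest pair was Psma6 and Psmb1, with an r of 0.94.

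Single members differed in how far they went with the core. Set against the median of the other core genes over the 36 arrays, Psmb1, Psma7 and Psma6 gave an r of 0.93, 0.92 and 0.92. Psmb6 and Psmb7 gave 0.42 and 0.57, and Psmb2 gave -0.37, the only core gene below 0, with duplicate spots that correlated at 0.13. In the cap, Psmc3 (0.85), Psmc5 (0.77) and Psmd4 (0.69) went with the core, and Psmd2 (-0.02), Psmd7 (-0.21) and Psmc4 (-0.26) did not. The duplicate spots of Psmc4 correlated at only 0.09. Among the conjugating enzymes Ube2b (0.77) and Ube2d2a (0.65) were closest, and Ube2v1 (0.09) and Ube2v2 (0.02) were not near it. Of all oligonucleotides, 6.34% reached an r of 0.5 with the core median.

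**Figure D5:**
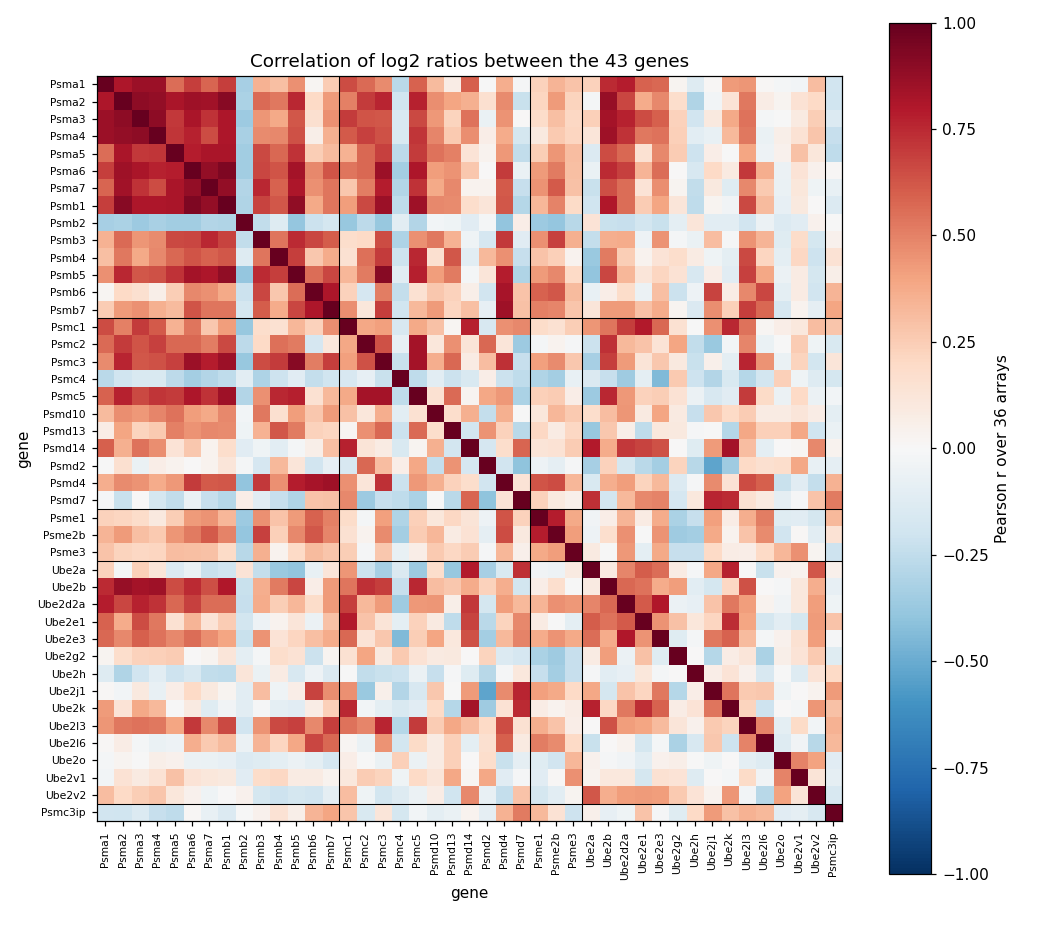
Pearson r of the log2 ratios over 36 arrays for each pair of the 43 genes (both axes, grouped as core, cap, activators, Ube2 and Psmc3ip, colour from -1 to 1). The block of alpha genes at the top left is uniformly positive (median 0.82), whereas the cap and Ube2 blocks are mixed (0.14 and 0.11).

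The members were also brighter in Cy5 than in Cy3 beyond what the ages account for. A dye term per oligonucleotide, tested with limma, was above 0 and called for 18 of 43 members, against 19.5% of all oligonucleotides, and below 0 and called for 2, against 16.6%. Its median was 0.19 for the core, 0.20 for the cap and 0.09 for the Ube2 genes, and 0.01 over all. Accordingly the 9 log ratios of a loop, which sum to 0 without error, summed to a median of 0.40, 1.96, 2.23 and 1.79 over the core genes in BSG loops 1 and 2 and GSG loops 1 and 2. In a closed loop each mouse is labelled once with each dye, so a constant dye effect cancels in the estimates by construction and adds to their SE. With the dye term the median SE of the members at 20 weeks was 0.247 in place of 0.291, and Ube2v1 was again the member called in GSG (adjusted p = 0.0106), with 0 called in BSG.

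In the rest of the pathway, 0 genes of any list outside the members were called at 20 weeks in either strain by limma. The 4 oligonucleotides of the inducible subunits Psmb8, Psmb9 and Psmb10, which replace the catalytic subunits under interferon, were above 0 in both strains, with medians of 0.26 in BSG and 0.37 in GSG (Psmb10 0.27 ± 0.15 and 0.41 ± 0.15, adjusted p = 0.551 and 0.155, limma). Of 11 deubiquitinases, 5 were above 0 in BSG and 3 in GSG. Uchl5, which trims chains at the cap, gave 1.04 ± 0.30 in BSG (adjusted p = 0.0988, limma) and -0.05 in GSG. Of the 3 measured activating enzyme genes, 3 were above 0 in BSG and 1 in GSG (Sae1, a subunit for the modifier Sumo, -0.67 ± 0.32 in GSG, adjusted p = 0.321).

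Among 8 measured ligases studied in muscle, 4 were above 0 in BSG and 2 in GSG. Nedd4 gave 0.31 and -0.82 and Stub1, which acts on misfolded proteins, -0.55 and -0.40 in BSG and GSG (lowest adjusted p = 0.215, limma). Of 5 cullin ligase genes, 2 were above 0 in BSG and 1 in GSG, with Skp2 at -0.44 and -1.13 (adjusted p = 0.849 and 0.152). Of 8 genes for delivery to the proteasome and its control, 5 were above 0 in BSG and 3 in GSG. Nfe2l2, the factor Nrf2, gave 1.02 ± 0.38 and -0.70 ± 0.38 (adjusted p = 0.254 and 0.436), and Sqstm1, an adaptor between ubiquitin and autophagy, gave 0.19 and 0.70. Of 3 measured genes for assembly and small subunits, 2 were above 0 in BSG and 1 in GSG, with Psmg1 at -0.42 and -0.25. Ubiquitin itself was not among the measured genes of the list.

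The marker lists of other cells and stages also held called genes at 20 weeks. In them 6 of 15 macrophage oligonucleotides were higher in GSG and 0 in BSG by limma, with medians of 0.97 and 0.73. Of 15 for newborn muscle, 7 were lower in GSG and 6 in BSG. Of 21 for dividing cells, 1 was lower in each strain, and of 11 for fibroblasts and matrix, 3 were lower in GSG and 1 in BSG. Of 11 for adult fast fibres 0 were called, with medians of 0.37 and 0.19, and of 4 for red cells 1 was lower in GSG. In whole muscle, fewer cells of a type and less RNA per cell cannot be told apart, and the part of the cell content in the values of the members was not tested.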

How the data were processed

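Quadriceps RNA of BSG and GSG mice was amplified to cRNA, labelled with Cy3 and Cy5 and hybridised on arrays of 65-mer oligonucleotides. Per the labels the arrays were read with GenePix. The authors normalised the arrays with the smida package in R, which corrects for the place on the slide, the dye and the array, and deposited log ratios of the channels per spot, which were taken as log2 from their range (-12.0 to 11.52). The base is not stated in the sources used here.

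The 16416 spots were averaged in pairs to 8129 oligonucleotides (80 pairs of Gapdh were collapsed to 1 entry), with no filter or further normalization. Of these 6752 had 1 gene symbol in the platform annotation. The 8 later ages against 1 week were fitted per strain with limma (version 3.58.1, R version 4.3.3, lmFit and eBayes, 20 residual degrees of freedom) over 36 arrays, two-sided, with Benjamini-Hochberg adjustment over 8129 at 0.05. The temporal Hotelling test used a quadratic curve in the time point number. Values per mouse came from least squares within a loop. Scripts were tested on simulated data. Plots were drawn with Python 3.11.15 and matplotlib 3.10.9.

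Members, gene lists and tests were chosen with earlier results of these data known. Named genes are the members called in any test, the catalytic or best known subunits and enzymes, the 2 members per subgroup with the smallest p over any age in each strain, and up to 3 genes per other list by p at 20 weeks. Psma2, Psma3, Psma4, Psma5, Psma6, Psmb4, Psmc2, Psmc5, Psmd2, Psmd7, Psmd10, Psme2b, Ube2a, Ube2d2a, Ube2g2, Ube2j1, Ube2k and Ube2o were added after their values were seen, as was the plot of 8 genes. The alternatives were other scalings, a dye term, loops or arrays left out, spots or animals as the unit, least squares and other summaries. The mice of a group are separate animals but can be littermates, and their number limits the precision. The p-values rest on the residual spread of array log ratios, taken as independent although neighbouring arrays share a mouse. That spread holds array and dye error beside the differences between such mice. With 1 value per animal, 145 oligonucleotides were called in GSG at 20 weeks in place of 304. Over the mean of the later ages 179 were called in place of 53.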

Additional observations from a re-analysis of the deposited data

How the results depend on the processing

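Members called at 20 weeks in GSG numbered 1 in the reported fit and 0 to 2 with 1 loop left out (0 without either BSG loop and without GSG loop 2, and 2, Ube2v2 and Ube2o, without GSG loop 1). In BSG the counts ran from 0 to 4 at 20 weeks (4 without loop 2: Ube2a, Ube2e1, Ube2v2 and Psmd14), from 0 to 4 over the later ages (4 without loop 2: Psma3, Psmd14, Ube2a and Ube2e1) and from 0 to 5 over any age (5 without loop 2: Psma2, Psma4, Psma6, Psma7 and Psmb1), in fits where the 1 remaining mouse per age is assumed to vary like the other groups. For the difference between the strains at 20 weeks and for the temporal profile they ran from 0 to 1 (Ube2v2 and Psmd14).

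The GSG count at 20 weeks was also 0 with 1 value per animal, with scaled arrays, with the first spots alone and with a dye term where arrays of low duplicate correlation were left out, and 2 with the second spots alone. With spots as separate observations 1 member was called in BSG at 20 weeks, 1 over the later ages in BSG and 1 over any age in GSG, and with the first spots alone 1 over any age in BSG.

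The same loop numbers in both strains do not mark animals that share a litter or a day by the labels. With the replicate block, as loops in a random block (correlation 0.107), 1 member was called at 20 weeks in GSG (Ube2v1, adjusted p = 0.00761) and 0 in the other tests, as reported. With 1 value per animal and loops as a fixed block the GSG count at 20 weeks was 0 (Ube2v1, adjusted p = 0.110).

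With 1 loop left out, the core median ran from -0.525 to -0.511 at 4 weeks in BSG and from -0.341 to -0.202 at 20 weeks, and in GSG from -0.260 to 0.137 at 8 weeks and from -0.125 to -0.0832 over the later ages. The cap median ran in BSG from -0.150 to 0.0786 at 20 weeks and from -0.221 to 0.132 over the later ages, and in GSG from -0.112 to -0.00901 and from -0.125 to -0.0589. Without the arrays of duplicate correlation below 0.3 the GSG medians were -2.10, -1.28, -0.204 and -0.897 for the core (4, 8 and 20 weeks and the mean of later ages), -0.245 and -1.05 for the cap and -0.213 and -0.579 for Ube2 (20 weeks and mean). With a dye term in that fit, added after seeing the data, the medians that moved were -0.504 and -0.244 for the core in BSG at 4 and 20 weeks, and -0.224 and -0.223 for the core and the cap in GSG over the later ages. Scaled arrays gave -0.262 and -0.225 for the core in BSG at 4 and 20 weeks, -0.112 for the core in GSG over the later ages and -0.00639 for the cap in GSG at 20 weeks. The first and second spots alone gave -0.353 and -0.553 for the core in BSG at 4 weeks, and the first spots -0.0930 for the cap in GSG over the later ages. The mean over members gave -0.199 for the core in BSG and -0.201 for Ube2 in GSG at 20 weeks. The cause was not tested, except that open loops no longer cancel a dye effect by construction. A single value per gene equals the reported one, since each gene had 1 oligonucleotide. No called value changed sign, but 10 of the 16 subgroup medians, which were not tested, did under 1 or more alternatives. The core median at 4 weeks was below 0 under all of them in both strains. The single arrays leading from 1 to 4 weeks, in which a dye effect does not cancel, did not all show this.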
